A study of Mus musculus with 194 samples.

Results

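The genes for 8 zinc-finger transcription factors, Sp1, Sp2, Sp3, Sp4, Klf6, Klf7, Klf9 and Klf13, were examined as places where a transposon landed in the mouse brain. They were chosen by name, as members of the Sp and Klf family, and are 8 of the 21627 protein-coding genes in the table of mouse genes used here. For each gene, insertions were counted in the GRCm38 gene body with 10 kb on each side, called the locus, and expressed per 1000000 insertions of that animal (IPM). The question was whether insertions marked with the factor SP1 lie more often in the genes of its own family, and at their promoters, than insertions made without it.

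The method records where a transposase has been in a genome: piggyBac, which inserts at the bases TTAA, leaves a transposon, and a fused transcription factor steers the insertions towards its own binding sites. Per the labels' protocols, virus was injected on the first days after birth and for the libraries read from RNA the cortex was later cut into 10 pieces that were isolated and indexed separately. The 47 deposited tables cover 46 animals in 11 groups and 1 pooled table of N2a neuroblastoma cells. The groups compared were SP1 P28 (labelled Syn1Cre_SP1_P28, 4 animals) and SP1 P10 (Syn1Cre_SP1_P10, 3 animals), taken at postnatal days 28 and 10 by their labels, against Syn1Cre (6 animals, labelled with the Cre line alone and no SP1). A further group, Syn1CreNeg (6 animals), carries the Cre-negative label and no SP1. The other groups, also labelled without SP1, enter only the order of levels and 1 comparison of Cre lines. GFAPCre and GFAPCreNeg (6 animals each) belong to a line with Cre under the promoter of the astrocyte gene Gfap, the latter labelled Cre-negative. Frontflip_GFAPCre and Frontflip_GFAPCreNeg (3 animals each) carry the same Cre names, and the labels do not explain Frontflip. C57bl6J (2 animals) is an inbred strain that received viruses independent of Cre. In BrokenHeart (3 animals) the insertions were read from DNA and not from RNA. Rbp4Cre_TRAP (4 animals) is labelled as whole forebrain and not cortex, with RNA taken by TRAP, usually read as translating ribosome affinity purification. Syn1Cre is a line in which Cre is driven by the synapsin promoter, active in neurons, so the insertions labelled with it are not a sample of all cortical cells. The labels describe neither the SP1 construct nor the age, sex or strain background of the Syn1Cre and Syn1CreNeg animals. Both SP1 comparisons share the same 6 Syn1Cre animals as controls. Each table is 1 animal, and p-values measure the spread between animals.

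SP1 is the founding member of a family of factors that bind GC-rich DNA through zinc fingers at the end of the protein. The Sp factors read the GC box and are found at promoters of very many genes, where SP1 and SP3 are broadly expressed activators and SP4 is prominent in neurons. SP2 is the odd member, with a weaker preference for the GC box and a link to CCAAT-type promoters. The Klf factors have nearly the same fingers and read GC boxes and CACC boxes. KLF9 and KLF13 are short repressors that recruit the SIN3A corepressor, KLF7 takes part in axon growth, and KLF6 is an early-response gene.

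The promoter sequences are shown for 4 genes, picked by their IPM near a start. In Sp1, Sp4 and Sp2 every SP1 animal was higher than every Syn1Cre and Syn1CreNeg animal, and in Klf6 this was not so. A rise on this scale was common. Divided by total insertions, 85.3% of the promoters tested were called higher than in Syn1Cre at P28 and 72.6% at P10. The share of all promoters whose animals separate in this way is not given. Each line gives the 250 bases before a start that RefSeq lists (build GRCm38.p6), 5′ to 3′ on the gene's own strand, with the GC box, GGGCGG or its reverse complement CCGCCC, in capitals. Sp2 has 3 listed starts, and the start shown, 5271 bases downstream of the first, is the one beside which its SP1 insertions lay. The intervals are chr15:102406066-102406315 (plus strand) for Sp1, chr12:118301441-118301690 (minus) for Sp4, chr11:96977689-96977938 (minus) for Sp2 and chr13:5861239-5861488 (plus) for Klf6.
Sp1: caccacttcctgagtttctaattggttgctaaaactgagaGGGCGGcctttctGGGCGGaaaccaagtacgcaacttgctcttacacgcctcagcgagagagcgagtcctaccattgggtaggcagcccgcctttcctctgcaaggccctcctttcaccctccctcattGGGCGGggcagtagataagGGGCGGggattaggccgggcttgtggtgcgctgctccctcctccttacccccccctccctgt
Sp4: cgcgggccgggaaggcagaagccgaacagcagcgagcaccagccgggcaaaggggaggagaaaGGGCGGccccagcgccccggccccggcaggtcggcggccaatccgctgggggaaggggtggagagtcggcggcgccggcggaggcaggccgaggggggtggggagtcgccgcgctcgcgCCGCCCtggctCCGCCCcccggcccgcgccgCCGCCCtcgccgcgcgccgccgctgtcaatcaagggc
Sp2: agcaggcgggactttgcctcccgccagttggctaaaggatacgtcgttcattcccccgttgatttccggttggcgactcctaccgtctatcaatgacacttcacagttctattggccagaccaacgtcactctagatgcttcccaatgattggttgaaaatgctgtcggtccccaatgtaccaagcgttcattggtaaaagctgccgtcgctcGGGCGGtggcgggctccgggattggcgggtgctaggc
Klf6: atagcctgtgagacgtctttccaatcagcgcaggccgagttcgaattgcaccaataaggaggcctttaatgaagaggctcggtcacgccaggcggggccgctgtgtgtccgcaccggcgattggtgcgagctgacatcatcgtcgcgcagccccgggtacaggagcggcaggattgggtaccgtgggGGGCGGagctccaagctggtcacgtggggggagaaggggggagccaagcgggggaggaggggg

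The promoters of Sp1 and Sp4 each hold 4 GC boxes in these 250 bases, that of Klf13 holds 3 and that of Sp3 holds 2. Klf6, Klf7 and the Sp2 start shown have 1, and Klf9 and the other Sp2 starts have 0. The second start of Sp3, 1165 bases downstream of the first, has 5. The Sp2 start shown also holds 6 CCAAT boxes (CCAAT or ATTGG), a motif that 34.0% of all promoters hold at least once. Both strands were searched for each motif. For comparison, of the 32619 promoter sequences of this length in the RefSeq table, 33.0% hold at least 1 GC box and 4.12% hold at least 4. The TTAA that piggyBac needs is absent from many promoters, and 48.9% of all promoters hold at least 1. The 250 bases hold 0 for Sp1, Sp3, Sp4, Klf7, Klf13 and the Sp2 start shown. They hold 1 each for Klf6 and Klf9, and 2 for the first Sp2 start. The GC content is 80.0% for Sp4, 59.6% for Sp1 and 55.6% for the Sp2 start shown. A match describes the letters only and is not a binding site.

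The animals differed in depth, and depth limits what an insertion count can show. The number of insertions per animal ranged from 443158 to 1364948 in Syn1Cre, from 108965 to 577609 in SP1 P28, from 86842 to 95331 in SP1 P10 and from 97519 to 556145 in Syn1CreNeg. Because the cortex was divided into 10 pieces, a position can be counted up to 10 times per strand in an animal, and 10 was also the highest count found in these loci. A position at that limit cannot gain counts while the total goes on growing, so its IPM is then bounded. Syn1CreNeg has depths like those of the SP1 animals, so each comparison was also made against it. That control was chosen after the data had been seen, and its animals carry a different label from the SP1 animals. No library pool holds both SP1 and Syn1Cre animals, so the effect of the pool cannot be told apart from that of the group. The cortex was used in bulk, and more cells with an insertion cannot be told apart from more insertions per cell.

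Sp1, the gene of the factor itself, lies on chromosome 15 (102406316 to 102436404, plus strand). The locus held 444, 688, 498 and 329 IPM in the 4 SP1 P28 animals and 910, 947 and 1038 in the 3 SP1 P10 animals. In the 6 Syn1Cre animals it held 87.7, 81.1, 81.7, 63.7, 88.0 and 62.5. Every SP1 animal lay above every Syn1Cre animal, and the share of all loci that separate in this way is not given. In counts these levels stand for 75 to 190 insertions per SP1 P28 animal, 79 to 99 per SP1 P10 animal and 39 to 87 per Syn1Cre animal.

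The mean of the Sp1 locus was 490 ± 150 IPM (SD, n = 4) at P28 and 965 ± 66.3 (n = 3) at P10, against 77.5 ± 11.5 (n = 6) in Syn1Cre. In edgeR's quasi-likelihood test, with library factors set by the trimmed mean of M-values (TMM) over all loci, it rose by 2.13 on the log2 scale at P28 (SE 0.17, adjusted p = 2.36e-10). At P10 it rose by 3.14 (SE 0.15, adjusted p = 5.46e-14). Such calls were common: 51.5% of the 12050 loci tested were called at P28 (26.2% higher and 25.3% lower) and 40.7% of 12784 at P10 (20.1% higher and 20.6% lower). Among all loci the fold change of Sp1 at P28 exceeded 96.4%.

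Against the Syn1CreNeg animals, which differ from Syn1Cre in Cre label as well as depth, the Sp1 locus was still higher, by less. Those animals had 205, 154, 185, 110, 117 and 91.4 IPM, or 144 ± 45.0 (n = 6), all below the lowest SP1 animal. The log2 difference was 1.45 at P28 (SE 0.19, edgeR adjusted p = 8.59e-09). At P10, against Syn1CreNeg animals 1 to 3, whose depths are closest, it was 2.03 (SE 0.22, edgeR adjusted p = 3.96e-15). In this comparison 68.0% of 5484 loci were called at P28 (34.3% higher and 33.6% lower) and 74.3% of 2445 at P10 (39.1% and 35.1%). Within SP1 P28 the shallowest animal (108965 insertions) held the highest Sp1 level, 688 IPM, and the deepest (577609 insertions) the lowest, 329. As an alternative, every animal was thinned at random to the number of insertions in the shallowest. Against Syn1Cre this gave 2.50 at P28 (edgeR adjusted p = 1.46e-08) and 3.11 at P10 (edgeR adjusted p = 1.98e-12). Thinning acts on insertions already counted, so it evens the totals but does not lift the limit on counts per position. The effect of that limit on the Sp1 difference was not tested.

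**Figure D1:**
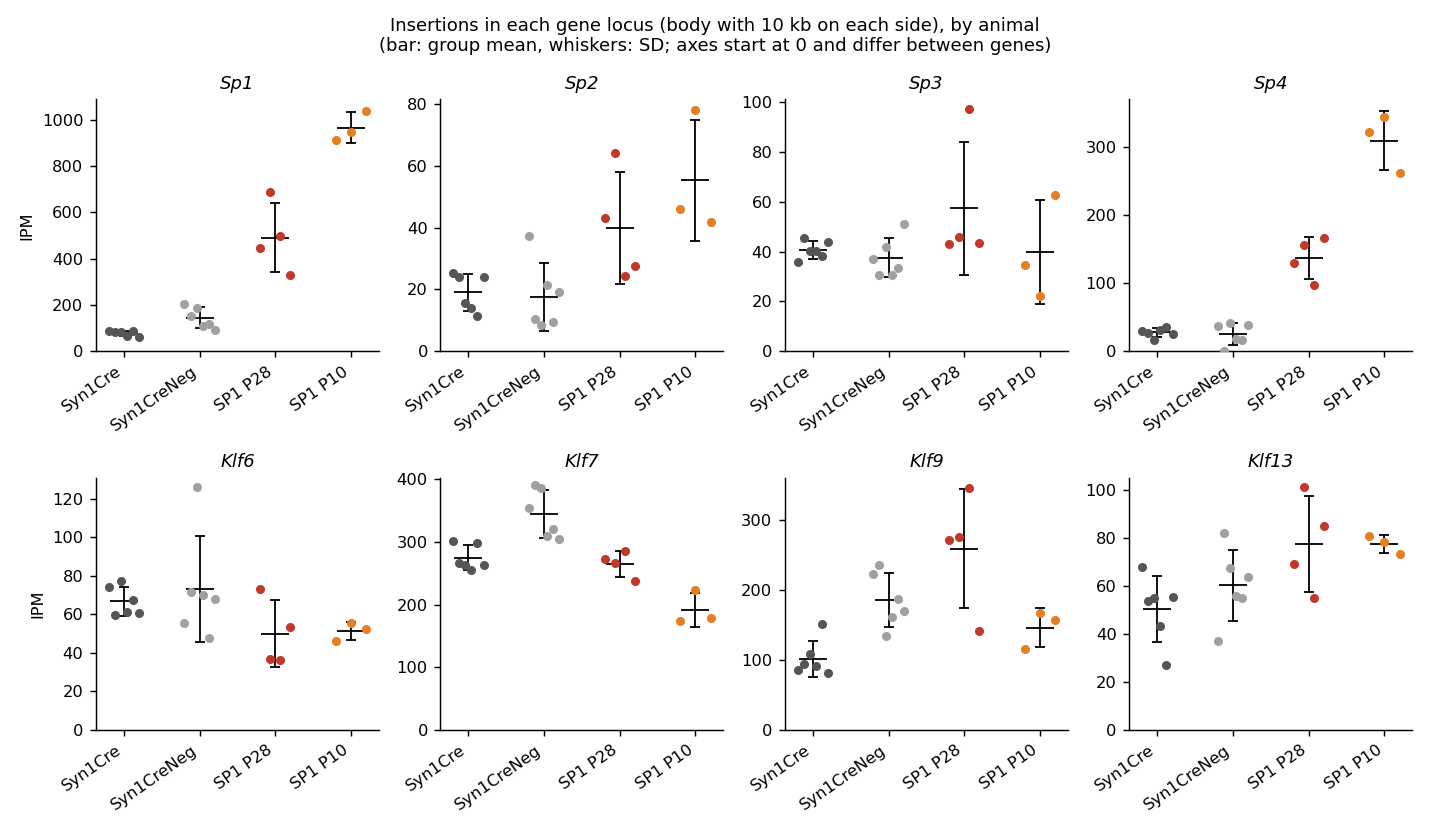
Insertions per 1000000 (IPM) in the locus of each gene (y axis, starting at 0 and differing between panels) for every Syn1Cre, Syn1CreNeg, SP1 P28 and SP1 P10 animal (points), with the group mean (bar) and SD (whiskers). The SP1 animals sit above every animal of both other groups for Sp1 and Sp4, while for Klf6 and Klf7 they do not.

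**Figure D2:**
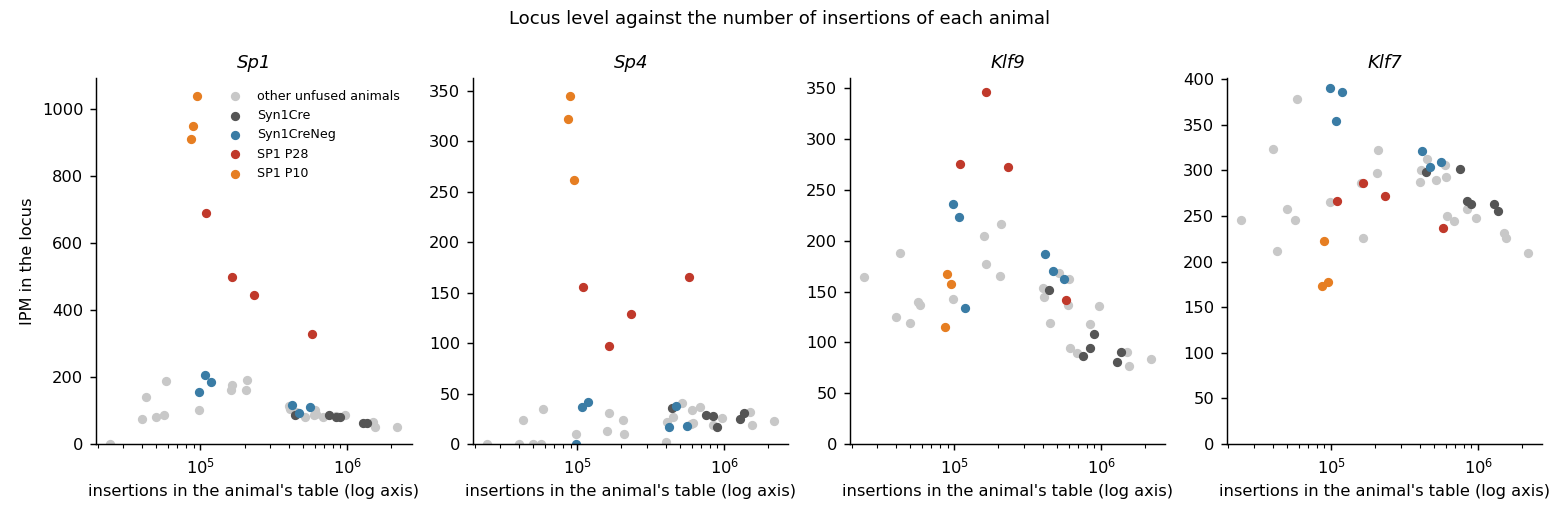
Insertions per 1000000 (IPM) in the Sp1, Sp4, Klf9 and Klf7 loci (y axis) against the insertions recorded in each animal (x axis, log scale), with 1 point per animal coloured by group and the animals of other groups in light grey. Within SP1 P28 the Sp1 level is lower in the deeper animals, and the 7 SP1 animals lie above the rest at every depth shown for Sp1 and Sp4.

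Sp4, the family member most prominent in neurons, lies on chromosome 12 (118231686 to 118301440, minus strand). Its locus held 129, 156, 97.2 and 166 IPM in SP1 P28 and 322, 345 and 262 in SP1 P10. In Syn1Cre it held 29.2, 27.4, 16.8, 30.8, 36.1 and 25.0, and in Syn1CreNeg 37.2, 0, 42.0, 18.0, 16.8 and 38.2. The SP1 animals again lay above all the others, and the share of all loci that do so is again not given. The locus rose by 1.91 at P28 (SE 0.21, edgeR adjusted p = 3.17e-08) and by 2.98 at P10 (SE 0.24, edgeR adjusted p = 2.54e-10). Against Syn1CreNeg the log2 differences were 2.10 (SE 0.27, edgeR adjusted p = 5.07e-09) and 3.05 (SE 0.40, edgeR adjusted p = 1.76e-11). Unlike for Sp1, the change of control moved the Sp4 values by little. Only 44 (P28) and 9 (P10) Syn1CreNeg insertions stood behind them. Against this control the locus was kept for testing only because of its levels in the SP1 animals, so these calls are not separate support.

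The loci of Sp2 (chromosome 11, 96953332 to 96982959, minus strand) and Sp3 (chromosome 2, 72936430 to 72980446, minus strand) passed the test in neither comparison. Sp2 held 43.1, 64.2, 24.3 and 27.7 IPM in SP1 P28 and 46.1, 78.0 and 42.0 in SP1 P10, against 11.3 to 25.2 in Syn1Cre. All 3 SP1 P10 animals were above every Syn1Cre animal, and the P28 animals overlapped them. The log2 differences were 0.36 (SE 0.30, edgeR adjusted p = 0.323) and 0.97 (SE 0.44, edgeR adjusted p = 0.0783). Scaled by total insertions in place of TMM they became 0.84 and 1.50 and passed, with edgeR adjusted p of 0.0301 and 0.0115. The locus holds 3 listed starts of Sp2.

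For Sp3, the levels were 43.1, 45.9, 97.2 and 43.3 IPM in SP1 P28 and 34.5, 22.3 and 62.9 in SP1 P10, against 35.9 to 45.3 in Syn1Cre. The groups overlapped, and animal 3 of SP1 P28 and of SP1 P10 stood above the rest of its group. The log2 differences were -0.10 (edgeR adjusted p = 0.731) and -0.55 (edgeR adjusted p = 0.283).

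Of the 4 Klf genes, Klf9 rose at P28 and Klf6 and Klf7 fell at both ages, relative to the bulk of loci. Klf9 (chromosome 19, 23141226 to 23168129, plus strand), a gene induced by glucocorticoid and thyroid hormone in the brain, held 272, 275, 346 and 142 IPM in SP1 P28. It held 115, 167 and 157 in SP1 P10, and 81.2 to 151 in Syn1Cre. Animal 4 of SP1 P28, the deepest, and animal 1 of SP1 P10 lay within the range of Syn1Cre, and the other SP1 animals above it. The locus rose by 0.80 at P28 (SE 0.21, edgeR adjusted p = 0.00289) and differed by 0.04 at P10 (edgeR adjusted p = 0.929). Against Syn1CreNeg, which held 134 to 236 IPM, the P28 difference was 0.01 (edgeR adjusted p = 0.980), so the call was lost with that control, which differs in Cre label and in depth. With Syn1Cre as the control and all animals thinned to 108965 insertions, the P28 difference of 0.95 was called (edgeR adjusted p = 0.00261). Such thinning leaves the limit on counts per position in place, so the effect of that limit was not tested. Without the flanks the call was lost, with an edgeR adjusted p of 0.405.

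Klf7, the axon-growth factor (chromosome 1, 64029448 to 64122345, minus strand), held 272, 266, 286 and 237 IPM in SP1 P28, within or just below the 255 to 302 of Syn1Cre. In SP1 P10 it held 173, 223 and 178, below every Syn1Cre animal. The locus fell by 0.54 on the log2 scale at P28 (SE 0.14, edgeR adjusted p = 0.00263) and by 1.05 at P10 (SE 0.19, edgeR adjusted p = 9.91e-05). Scaled by total insertions the P28 value was -0.06 (edgeR adjusted p = 0.733), no longer called, while the P10 value of -0.52 was (edgeR adjusted p = 0.0376). With all animals thinned to the shallowest, the P28 value was -0.08 (edgeR adjusted p = 0.726) and not called. Against Syn1CreNeg, which held 304 to 390 IPM, the values were -0.76 (edgeR adjusted p = 5.02e-05) and -1.35 (edgeR adjusted p = 8.49e-07).

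Klf6 (chromosome 13, 5861489 to 5870393, plus strand) held 73.3, 36.7, 36.4 and 53.7 IPM in SP1 P28 and 46.1, 55.7 and 52.4 in SP1 P10, against 59.6 to 77.3 in Syn1Cre. It fell by 0.79 at P28 (SE 0.21, edgeR adjusted p = 0.00256) and by 0.89 at P10 (SE 0.32, edgeR adjusted p = 0.0336). The P10 call was lost without each of P10 animals 1, 2 and 3 in turn. Scaled by total insertions neither value was called, with -0.32 (edgeR adjusted p = 0.227) and -0.37 (edgeR adjusted p = 0.489).

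Klf13 (chromosome 7, 63886351 to 63938915, minus strand), whose locus also contains E030018B13Rik, held 69.0, 101, 54.7 and 84.8 IPM in SP1 P28, which overlapped the 27.1 to 67.8 of Syn1Cre. In SP1 P10 it held 80.6, 78.0 and 73.4, all above that range. TMM scaling gave differences of 0.12 (edgeR adjusted p = 0.641) and 0.06 (edgeR adjusted p = 0.916). Scaled by total insertions the P28 difference was 0.59 and passed (edgeR adjusted p = 0.0303), and the P10 difference was also 0.59 and did not (edgeR adjusted p = 0.215).

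The scaling matters because it moves all loci. TMM set the median log2 difference of the loci tested near -0.06 at P28 and -0.26 at P10, and division by total insertions put it at 0.42 and 0.27. Under total scaling 51.9% of loci were called at P28 (41.7% higher and 10.2% lower) and 37.5% at P10 (28.5% and 8.94%). The directions of Sp1 and Sp4 were the same under both. Of the 8 members, 3 rose and 2 fell at P28 and 2 rose and 2 fell at P10 under TMM, with a median over the members of 0.24 and 0.05. Over all loci tested under TMM, 26.2% were higher and 25.3% lower at P28, and 20.1% and 20.6% at P10, so the members' counts lie near these shares.

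**Figure D3:**
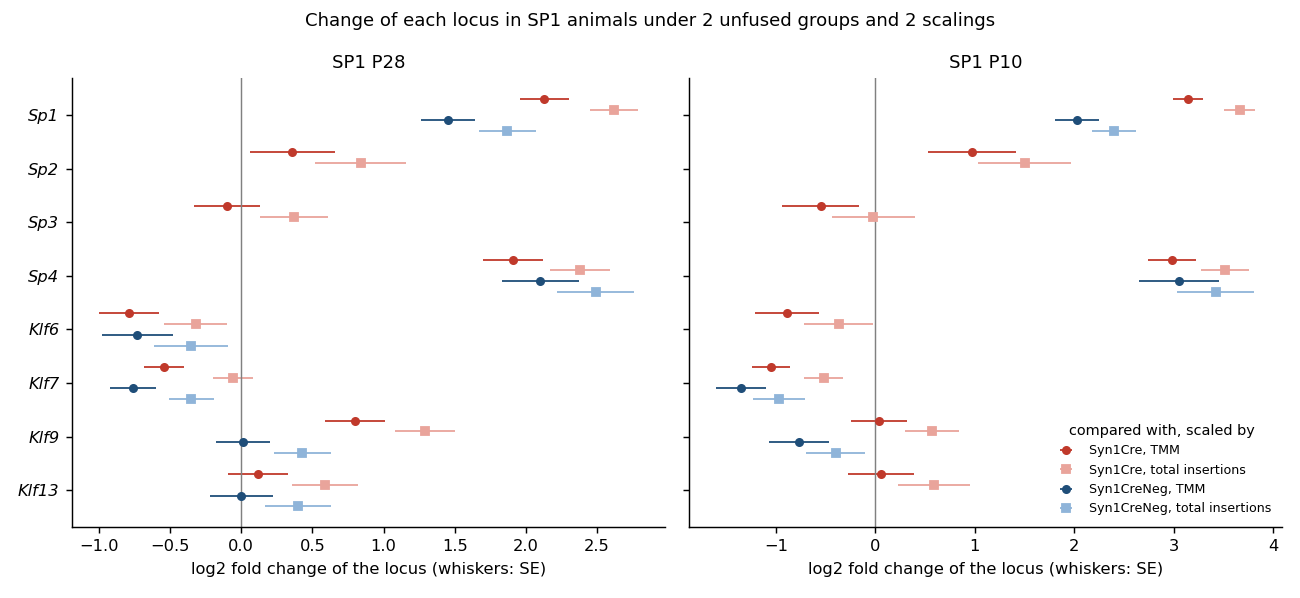
Log2 fold change of each locus (x axis, with its SE as whiskers) in SP1 P28 (left) and SP1 P10 (right), against Syn1Cre (red) or Syn1CreNeg (blue), scaled by TMM (circles) or total insertions (squares). A gene with no blue symbol had too few insertions in the animals compared to be tested. Sp1 and Sp4 are above 0 in all settings shown, and Klf6 and Klf7 are below 0 in all settings tested.

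Insertions within 1 kb of a listed gene start, the promoter window, were then counted apart. The Sp1 window held 7, 5, 1 and 12 insertions in the SP1 P28 animals and 5, 8 and 7 in the SP1 P10 animals, which is 30.2, 45.9, 6.07 and 20.8 and 57.6, 89.1 and 73.4 IPM. It held 0 in each of the 39 animals without SP1 and in the N2a table. Taking the 3 insertions that a count of 0 allows over the Syn1Cre group as the floor, 0.538 IPM, the window was at least 47.8-fold higher in SP1 P28 and at least 136-fold higher in SP1 P10. Over the shallower Syn1CreNeg group the floor was 1.70 IPM, and the bounds were at least 15.2-fold and 43.3-fold. Floors cover counting error only. The Sp1 window holds 3 positions that were hit in any of the 47 tables.

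Sp4 showed the same order at its start. Its window held 60.4, 73.4, 48.6 and 60.6 IPM in SP1 P28 and 138, 189 and 94.4 in SP1 P10. In Syn1Cre it held 3.99, 2.39, 0, 0.733, 13.5 and 2.34, and in Syn1CreNeg 0, 0, 8.40, 1.80, 2.39 and 2.12. The lowest SP1 animal was above the highest of either control. The Sp4 window rose by 2.54 at P28 (SE 0.38, edgeR adjusted p = 8.46e-07) and by 3.29 at P10 (SE 0.45, edgeR adjusted p = 4.48e-07). It was kept for testing only because of its levels in the SP1 animals, so these calls are not counted as results. Of the promoter windows tested, 64.8% of 2492 were called at P28 (34.8% higher and 30.0% lower) and 59.8% of 2535 at P10 (29.3% higher and 30.4% lower).

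In the window of Sp2 the SP1 animals also lay above all the others in IPM. Most windows tested rose on that scale, with a median log2 difference of 2.02 at P28 and 2.36 at P10 against Syn1Cre. The Sp2 window held 25.9, 45.9, 24.3 and 13.9 IPM in SP1 P28 and 23.0, 66.8 and 21.0 in SP1 P10. It held 2.20 to 5.47 in Syn1Cre and 0 to 8.40 in Syn1CreNeg. Too few insertions passed the filter on low counts for a test at P28, and at P10 the log2 difference was 0.99 (edgeR adjusted p = 0.119). Scaled by total insertions the P10 value was 3.29 (edgeR adjusted p = 9.99e-06). Split by start, the SP1 insertions lay at 1 of the 3. Within 1 kb of the start 5271 bases downstream, there were 22 insertions over the SP1 P28 animals, 10 over the SP1 P10 animals, 15 over Syn1Cre and 3 over Syn1CreNeg, which is 27.0 ± 14.0, 36.9 ± 25.9, 2.70 ± 0.720 and 0.953 ± 1.55 IPM. Within 1 kb of the first start the SP1 animals held 0, and near the start 14294 bases downstream they held 1.

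In IPM, the window of Klf7 at both ages and that of Klf9 at P28 lay above every Syn1Cre animal and overlapped Syn1CreNeg. Most windows tested rose against Syn1Cre on this scale. Klf7 held 21.6, 55.1, 18.2 and 24.2 IPM in SP1 P28 and 23.0, 55.7 and 42.0 in SP1 P10, above the 4.48 to 13.5 of Syn1Cre and within or near the 19.8 to 50.4 of Syn1CreNeg. Klf9 held 56.1, 45.9, 103 and 34.6 in SP1 P28 and 23.0, 78.0 and 10.5 in SP1 P10. Its range was 13.3 to 31.6 in Syn1Cre and 36.1 to 113 in Syn1CreNeg. The P10 animals of Klf9 spread across both, with animal 3 below every Syn1Cre animal. The direction depends on the scaling: under TMM the log2 differences at P28 were -0.23 for Klf7 and -0.30 for Klf9, neither called, and under total scaling 1.63 (edgeR adjusted p = 1.09e-04) and 1.62 (edgeR adjusted p = 5.21e-06). At P10 the Klf9 window fell by 1.21 under TMM (edgeR adjusted p = 0.0137) and was 1.09 under total scaling (edgeR adjusted p = 0.0753). This fall was not called without P10 animal 1 (-0.92) or without P10 animal 3 (-0.65).

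The windows of Sp3, Klf6 and Klf13 overlapped between groups. Sp3 held 12.9, 0, 42.5 and 20.8 IPM in SP1 P28 and 11.5, 11.1 and 21.0 in SP1 P10, against 4.51 to 13.3 in Syn1Cre. Klf6 held 5.19 to 12.9 in SP1 P28 and 0 to 23.0 in SP1 P10, against 5.13 to 20.3. Klf13 held 0 to 9.18 and 0 to 22.3, against 0 to 1.56. Behind these levels stood at most 3 insertions per SP1 animal for Klf6 and at most 5 for Klf13, and none of the 3 windows was tested at either age.

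Here too the scaling moved every window: the median of all windows tested was 0.12 at P28 and 0.06 at P10 under TMM, and 2.02 and 2.36 under total scaling. Under total scaling 86.1% of the windows tested were called at P28 (85.3% higher and 0.803% lower) and 73.5% at P10 (72.6% and 0.828%). The 3 members tested at P28 (Sp4, Klf7 and Klf9) were all called higher under that scaling, and 1 of them, Sp4, under TMM. At P10, 5 members were tested under TMM, of which Sp4 was called higher and Klf9 lower. The Sp1 window was tested there as well, but with 0 insertions in Syn1Cre it passed the filter on low counts only through the SP1 P10 animals. Its call is therefore not counted as a result. The Sp4 and Klf7 windows at both ages and the Sp2 window at P10 also passed that filter only through SP1 animals. Their calls, under either scaling, are not counted as results either. With the Sp1 window, 3 were called at P10, and 1 without P10 animal 3. Without P28 animal 3 the number of members called at P28 was 2.

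**Figure D4:**
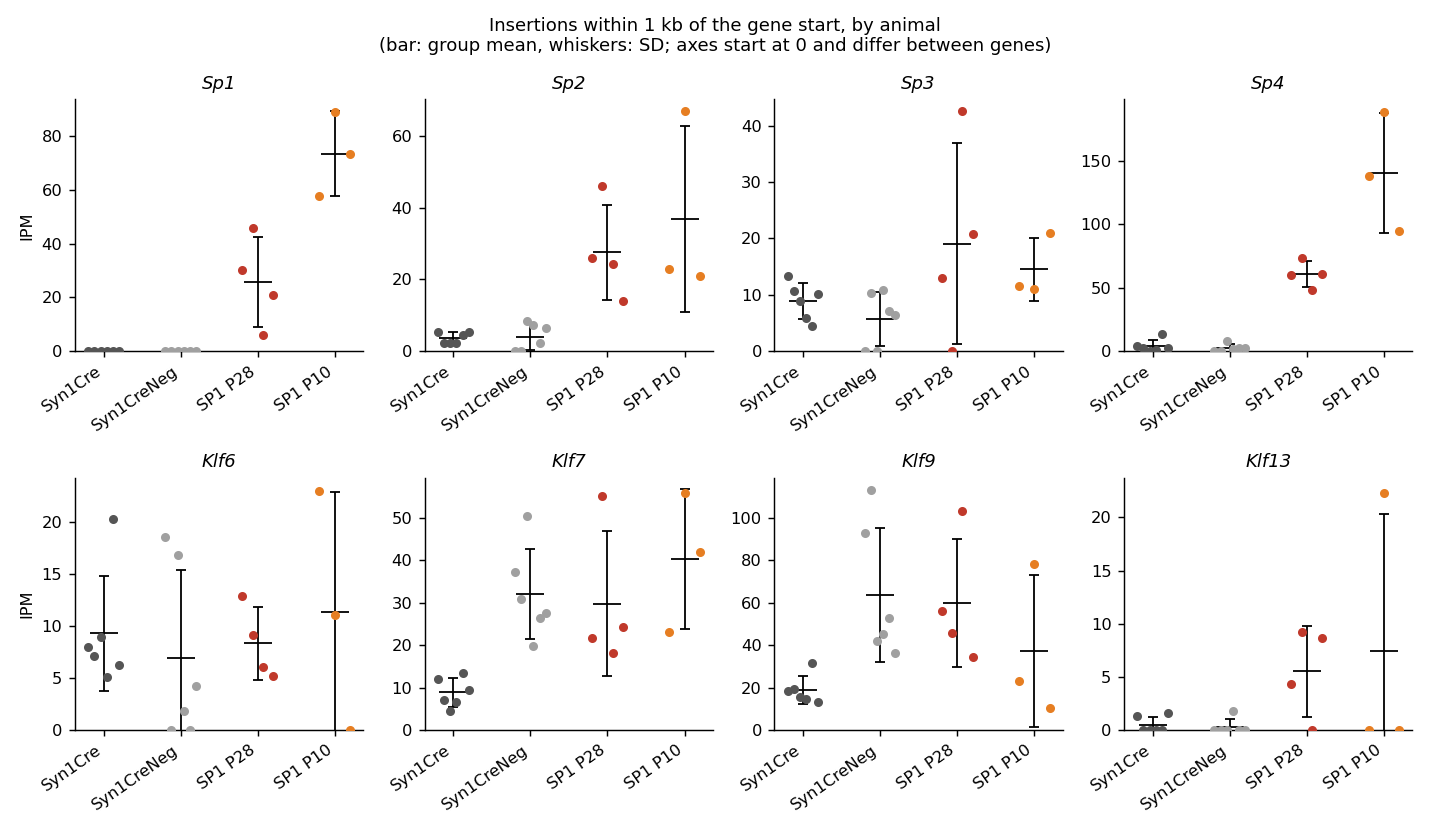
Insertions per 1000000 (IPM) within 1 kb of each gene start (y axis, starting at 0 and differing between panels) for every Syn1Cre, Syn1CreNeg, SP1 P28 and SP1 P10 animal (points), with group mean (bar) and SD (whiskers). The Sp1 panel shows 0 in all animals of Syn1Cre and Syn1CreNeg and 6.07 to 89.1 in the SP1 animals, and the Klf7 and Klf9 panels show SP1 P28 animals within or near the range of Syn1CreNeg.

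The share of a locus' insertions that fell within 1 kb of the start describes the same shift without a scaling factor. That shift was not particular to these genes. Divided by total insertions, the median promoter window tested rose by 2.02 on the log2 scale at P28 and 2.36 at P10. The median of loci outside promoters was 0.06 and -0.16. The share over all loci is not given. For Sp4 the share was 11.9% ± 13.5 (SD, n = 6) in Syn1Cre, 45.0% ± 5.92 (n = 4) in SP1 P28 and 44.6% ± 9.53 (n = 3) in SP1 P10, beside 9.97% ± 7.72 in the 5 Syn1CreNeg animals with an insertion there. For Sp2 it was 20.6% ± 10.5, 70.4% ± 21.6 and 61.9% ± 20.6. In Syn1CreNeg the Sp2 share was 31.9% ± 36.7, from 0% to 100%, which overlapped the SP1 animals. For Sp1 it was 0% in Syn1Cre and Syn1CreNeg, 5.25% ± 2.69 in SP1 P28 and 7.60% ± 1.61 in SP1 P10. Most of the Sp1 insertions therefore lay outside this window, but many were just upstream of it. A set of 8 positions, most of them between -1474 and -1062 bases from the start, held 214 of the 450 insertions in SP1 P28. In SP1 P10 the same set held 120 of 263. The Klf7 share went from 3.17% ± 1.04 to 11.3% ± 6.45 and 20.6% ± 6.35, beside 9.19% ± 2.33 in Syn1CreNeg. Klf9 went from 18.3% ± 2.95 to 22.9% ± 5.60 and 24.4% ± 20.4, below the 33.0% ± 9.86 of Syn1CreNeg.

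Leaving out every position within 1 kb of a gene start, the rest of the Sp1 locus still rose, by 2.44 at P28 and 3.39 at P10. The rest of the Sp4 locus rose by 1.65 and 2.64. These parts still include much-hit positions just beyond the windows, from -1474 to -1062 at Sp1 and at +1007 and +1039 at Sp4. Klf9 rose by 1.06 at P28 (edgeR adjusted p = 9.01e-04) and also against Syn1CreNeg, by 0.56 (edgeR adjusted p = 0.0210), where 52.1% of 3775 loci were called (28.3% higher and 23.8% lower). Klf7 fell by 0.97 at P10 (edgeR adjusted p = 7.53e-04). Sp2 outside its promoter held 12.4 ± 8.46 IPM in SP1 P28 and 15.3 ± 5.66 in Syn1Cre, so the higher level of its locus lay within 1 kb of starts. In these regions 40.1% of 9819 loci were called at P28 (21.3% higher and 18.9% lower) and 29.0% of 10749 at P10 (13.9% higher and 15.2% lower).

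Single TTAA positions show where these insertions lay. In the 8 loci, 36 positions were hit in at least 6 of the 7 SP1 animals: 19 at Sp1, 5 each at Sp4, Klf7 and Klf9, 1 each at Sp2 and Klf13, and 0 at Sp3 and Klf6. This choice of positions used the SP1 animals, so their levels there are a description. Over the genome, 12732 positions were hit in at least 6 SP1 animals, 1.99% of the 638263 hit in any of them.

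At Sp1 the positions fell into different kinds. A group of 8 were also hit in at least 5 of the 6 Syn1Cre animals. They comprise 7 positions from -1474 to -1062 bases relative to the start, just upstream of the promoter window, and 1 at +15269 within the gene body. They held 43.3 insertions per animal in Syn1Cre, 53.5 in SP1 P28, 40.0 in SP1 P10 and 24.7 in Syn1CreNeg. The counts per animal were close, although the SP1 P10 animals were far shallower. In IPM this is 49.5 ± 9.73 in Syn1Cre, 100 ± 33.8 in Syn1CreNeg, 261 ± 113 in SP1 P28 and 440 ± 72.2 in SP1 P10. At -1389 the SP1 P28 animals held 10, 8, 10 and 12 insertions and the Syn1Cre animals 8, 10, 8, 9, 7 and 9, beside a limit of 10 per strand.

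Another 7 positions at Sp1 were hit in at most 1 Syn1Cre animal. They lie at -339, +928, +1194, +1329, +1675, +3323 and +24691. Together they held 85 insertions over the 4 SP1 P28 animals and 63 over the 3 SP1 P10 animals, against 4 over the 6 Syn1Cre animals and 5 over the 6 Syn1CreNeg animals. In IPM this was 97.1 ± 58.4 and 231 ± 22.4 against 0.714 ± 0.948 and 1.71 ± 1.96. Most of them lie in the first few kilobases of the gene, downstream of the promoter sequence printed above. Exons were not annotated here, and the sequence of the SP1 construct is not described in the labels, so these positions were not set against either.

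Across the members, 5 positions hit in at least 6 SP1 animals had no insertion in any Syn1Cre or Syn1CreNeg animal. At Sp1 they are -339 (17 insertions in 6 SP1 animals), +928 (27 in 7) and +24691 (26 in 7). At Sp4 the position +378 held 5, 3, 4 and 9 insertions in SP1 P28 and 4, 6 and 4 in SP1 P10, 35 in all, and 1 in the other animals without SP1. At Klf13 the position +2249 held 15 insertions over all 7 SP1 animals. Genome-wide there were 347 such positions, and 66.0% of them lay within 1 kb of a gene start. At Sp2 the position +4645, within 1 kb of the start whose sequence is shown above, was hit in all 7 SP1 animals and in all 6 Syn1Cre animals, with 25 and 15 insertions.

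The recurrent positions of Klf7 and Klf9 were all hit in some Syn1Cre and some Syn1CreNeg animals as well, though not equally. At Klf9 the position -6400 was hit in 2 Syn1CreNeg animals, and at Klf7 the position +631 in 3 Syn1Cre animals. At Klf9, 5 positions from -7444 to -229 were hit in 5 or 6 of the Syn1Cre animals, and held 29.2 ± 8.28 IPM in Syn1Cre, 55.5 ± 34.2 in Syn1CreNeg, 120 ± 41.9 in SP1 P28 and 98.9 ± 14.4 in SP1 P10. At Klf7, 4 of the 5 were, with 23.1 ± 3.00, 64.6 ± 25.2, 44.3 ± 7.82 and 54.6 ± 19.5. Of the SP1 P28 insertions at Klf7 and Klf9, 3.99% and 3.45% lay at positions that no Syn1Cre or Syn1CreNeg animal had hit, against 37.7% at Sp4, 25.9% at Klf13, 18.4% at Sp1 and 16.1% over the genome. These shares were 3.85%, 2.50%, 34.5%, 52.4%, 22.4% and 16.4% in SP1 P10.

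**Figure D5:**
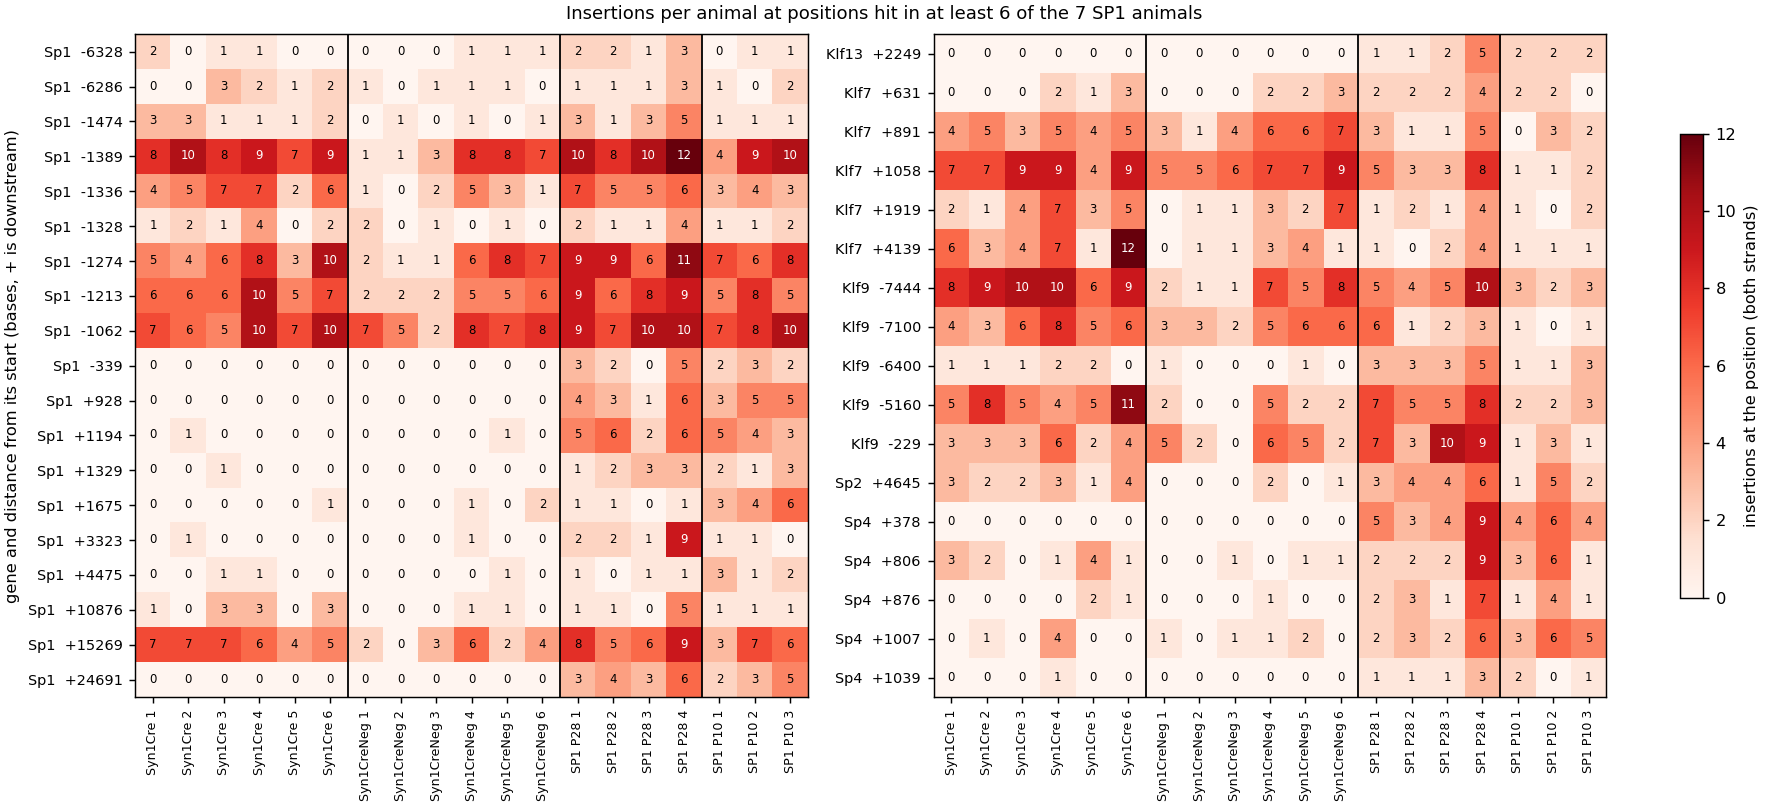
Insertions per animal, both strands together (colour and number), at the 36 positions of the member loci hit in at least 6 of the 7 SP1 animals, named by gene and distance in bases from the gene start, with Syn1Cre, Syn1CreNeg, SP1 P28 and SP1 P10 animals in columns. At Sp1 the positions from -1474 to -1062 are filled in nearly every animal, while -339, +928 and +24691 hold 0 in all 12 animals of Syn1Cre and Syn1CreNeg.

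Between the SP1 ages, the Sp1 locus was lower at P28 than at P10 by 0.94 on the log2 scale, a value of -0.94 (SE 0.21, edgeR adjusted p = 0.00625), and the Sp4 locus by 0.99, a value of -0.99 (SE 0.24, edgeR adjusted p = 0.00929). The groups did not overlap at either. Of the 3458 loci tested, 11.1% were called (7.40% higher and 3.73% lower at P28), and 2 of the 4 members tested were. Klf7 and Klf9 differed by 0.57 (edgeR adjusted p = 0.0963) and 0.83 (edgeR adjusted p = 0.0610). The calls rest on few animals. Without P10 animal 3 no member and 7 loci in all were called, without P10 animal 1 or animal 2 the number of members called was 1, and without P28 animal 4 it was 4. The Sp4 promoter window was the only one of a member that could be tested, at -0.44 (edgeR adjusted p = 0.394), where 5.46% of 403 windows were called. Those 22 windows became 0 under total scaling, 2 in DESeq2 and 3 without P28 animal 1. The P10 animals were also shallower than all P28 animals. With all SP1 animals thinned to 86842 insertions, the Sp1 difference was -0.87 (edgeR adjusted p = 0.00717) and the Sp4 difference -1.18 (edgeR adjusted p = 0.00526). Klf9 was then called as well, at 1.00 (edgeR adjusted p = 0.0200), and 283 loci were called over all, against 385 unthinned. Here too thinning evened the totals but did not lift the limit on counts per position, whose effect was not tested.

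Over all 11 groups the order of levels set Sp1 and Sp4 apart from the other members. For both, SP1 P10 was highest and SP1 P28 next, with no overlap between them or with the group below. The share of all loci with this order is not given, so it is not shown to be unusual. For Sp1 the groups below ran from 167 ± 9.40 IPM in Frontflip_GFAPCre (3 animals) through 144 ± 43.5 in BrokenHeart (3 animals), 112 ± 41.2 in GFAPCreNeg and 85.1 ± 11.5 in GFAPCre (6 animals each) to 60.5 ± 40.7 in Rbp4Cre_TRAP (4 animals) and 50.7 ± 0.564 in C57bl6J (2 animals). Each of these neighbours in the order overlapped, and the N2a table held 193. No member locus was called between Syn1Cre and GFAPCre, Cre lines without SP1 that are named for a neuronal and an astrocyte promoter. The summed neuronal and astrocyte markers below overlapped between these groups, so the names do not tell which cells were compared. In this comparison 2.15% of 11550 loci were called (1.19% higher and 0.961% lower in Syn1Cre). The 248 loci called there ranged from 128 (without Syn1Cre animal 2) to 835 (without Syn1Cre animal 5) when 1 animal was left out, and were 1634 with Syn1Cre animals 1 to 3 only and 74 with animals 4 to 6 only. For Klf13 the N2a table held 0 insertions, which allows up to 3.72 IPM. The means of the animal groups for Klf13 ran from 34.7 IPM in Frontflip_GFAPCreNeg, which rests on 1 insertion in 1 of 3 animals, and 39.2 in Frontflip_GFAPCre to 103 in BrokenHeart.

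By the correlation of group means over the 11 groups, on the log2 scale with a pseudocount of 1, the loci most like Sp1 were Idh1 (r = 0.976) and Ripk2 (r = 0.967). Those most like Sp4 were Spag7 (r = 0.993) and Abcb9 (r = 0.992), and those most like Sp2 were Rplp1 (r = 0.995) and Kif23 (r = 0.993). For Sp3 they were Rap1gds1 (0.998) and Nlk (0.997), for Klf6 Snd1 (0.915) and Sgo2a (0.879), for Klf7 Acsl3 (0.994) and Pik3r1 (0.993), and for Klf13 Tmem255b (0.994) and Nfya (0.991), as r. The group means share animals' depth, and these likenesses are descriptions over 11 points.

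The other Sp and Klf genes are 18, of which 13 were tested at each age. At P28, 5 were higher and 2 lower than in Syn1Cre, beside 26.2% higher and 25.3% lower over all loci, with a median log2 difference of 0.56 beside -0.06 for all loci. Klf11, a paralogue of Klf10 that recruits SIN3A, held 54.8 ± 20.3 IPM against 6.90 ± 1.31, a log2 difference of 2.22. With so low a level in Syn1Cre, the Klf11 locus passed the filter on low counts only through the SP1 animals. It is among the 5 called higher at each age, but its calls are not counted as results. Whether this holds for other genes of the list is not given. Klf1, the erythroid factor, rose by 2.05 and Klf16 by 1.77, from 72.5 ± 14.2 to 353 ± 57.8. Klf8 fell by 0.65 and Klf12 by 0.61. At P10, 5 were higher, led by Klf1 (2.71), Klf11 (2.51) and Klf10 (2.03), and 2 lower, Klf8 (-1.07) and Klf12 (-0.83), beside 20.1% higher and 20.6% lower over all loci, with a median of 0.65 beside -0.26.

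Genes for 10 coregulators known to work with Sp and Klf factors gave the largest single value among the lists. Sin3a, the corepressor scaffold, held 435 ± 139 IPM in SP1 P28 against 37.6 ± 10.5 in Syn1Cre and rose by 3.00 (SE 0.21, edgeR adjusted p = 1.86e-11), and by 3.57 at P10 (edgeR adjusted p = 5.35e-13). Hdac1 rose by 1.31 and 2.05 and Ep300 by 1.09 and 0.84, and Rcor1 fell by 0.60 at P28. Of the 8 coregulators tested at each age, 3 were higher and 1 lower at P28 and 3 higher and 0 lower at P10. Among 24 genes of other widespread promoter-binding factors, 21 were tested at P28, where 7 were higher, led by E2f1 (1.97), Hcfc1 (1.88) and Myc (1.70), and 4 lower. At P10, 22 were tested, 3 were higher (E2f1, Hcfc1 and Myc) and 4 lower, among them Creb1, which fell by 1.72. The counts of both lists stand beside 26.2% higher and 25.3% lower over all loci at P28, and 20.1% and 20.6% at P10.

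Markers of cell types moved with the groups as well. The summed level of 9 neuronal loci, such as Snap25 and Rbfox3, was 3295 to 3946 IPM in Syn1Cre, 1955 to 2238 in SP1 P28 and 1637 to 1836 in SP1 P10. The sum of 9 astrocyte loci, such as Aqp4 and Gja1, was 630 to 2004, 1027 to 2199 and 860 to 1158. In Syn1CreNeg the means were 2654 ± 384 and 2369 ± 199. The sums of 6 oligodendrocyte loci were alike, with means of 218 ± 22.2, 234 ± 36.3 and 226 ± 43.8. For 5 microglial loci the means were 33.2 ± 4.85, 40.7 ± 16.1 and 29.3 ± 5.52, and Cx3cr1, Csf1r and Tmem119 were at 0 in SP1 P10. Their part in the differences at the Sp and Klf loci was not tested.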

How the data were processed

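Transposon insertions were measured in brain tissue of 46 animals (cortex, or forebrain for Rbp4Cre_TRAP) and in 1 pooled table of N2a cells. The authors deposited 1 line per insertion, with its position and a raw count of reads, and the submitters' processing notes list mm10, Novoalign and Bowtie2 without their roles. Filters are not given in the sources used here. Lines were counted as insertions, whatever their read count, per locus (gene body with 10 kb on each side, RefSeq coordinates of GRCm38) and per promoter window (1 kb on each side of every listed start). Of 21627 protein-coding genes, 17273 have a listed start.

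Counts were tested with edgeR 4.0.16 in R 4.3.3 (glmQLFit and glmQLFTest, library size as all insertions of an animal, TMM factors, filterByExpr, Benjamini-Hochberg adjustment over all features tested, threshold 0.05), on the groups compared only. The tests were checked on simulated data with known changes. Of simulated 3-fold changes in loci, 85.5% were recovered at P28 and 54.0% at P10 against Syn1Cre. Outside promoters at P10 this was 35.0%. False calls ran up to 7.91% over the comparisons. A locus not called at P10 may therefore still differ. DESeq2 1.42.0 and other settings were alternatives, and the comparisons with Syn1CreNeg were added after the data were seen. Depth ranged from 2341 to 2186743 insertions per animal. Equal replicate numbers do not pair animals: the correlations of same-numbered animals ran from -0.08 to 0.11 in the SP1 comparisons. The members, and the lists of other genes, were chosen with earlier results of these data known. Every member is named in each comparison, and of each list up to 3 called genes in each direction by log2 fold change. The loci most like Klf9 are not reported here.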

Additional observations from a re-analysis of the deposited data

Results flagged for a closer look

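Single animals stood apart from their group in 18 of the group and gene pairs with 4 to 6 animals, by the gap to the next animal relative to the range of the group. Of the 96 such pairs examined, chance would flag about 1 in 20. All values are insertions per 1000000 (IPM).

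In the Sp1 locus, GFAPCreNeg animal 6 held 192 (the others 79.9 to 114) and Rbp4Cre_TRAP animal 4 held 0 (74.9 to 87.7). In the Sp3 locus, SP1 P28 animal 3 held 97.2 (43.1 to 45.9). In the Klf6 locus, Syn1CreNeg animal 3 held 126 (47.9 to 71.8), and in the Klf7 locus, Rbp4Cre_TRAP animal 3 held 324 (246 to 258). The Klf13 locus held 32.5 in GFAPCre animal 5 (44.5 to 49.2).

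Near the starts, Syn1Cre animal 5, the shallowest of its group, was high in 3 genes, with 13.5 for Sp4 (0 to 3.99), 20.3 for Klf6 (5.13 to 8.96) and 31.6 for Klf9 (13.3 to 19.1). GFAPCreNeg animal 6 was high for Klf6 with 24.0 (8.95 to 12.4) and for Klf7 with 33.6 (12.4 to 17.9). The Klf7 window also stood out in SP1 P28 animal 2 with 55.1 (18.2 to 24.2) and in GFAPCre animal 3 with 16.7 (1.63 to 6.00). For Sp4, Syn1CreNeg animal 3 held 8.40 (0 to 2.39), and for Klf13, Syn1CreNeg animal 4 held 1.80 where the others held 0. In Rbp4Cre_TRAP, 1 animal each held all insertions of a window, with 41.0 for Sp2, 35.1 for Sp3 and 25.0 for Klf6, where the others held 0.

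The Sp1 and Sp4 loci differed between the SP1 ages, with log2 differences of -0.94 and -0.99 (P28 against P10) in edgeR.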

How the results depend on the processing

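Results were recomputed under other scalings, tools, filters, windows and animals. In edgeR and DESeq2 alike, the Sp1 and Sp4 loci stayed higher and past the threshold in all 22 alternatives at P28 (log2 1.45 to 3.09 and 1.53 to 2.44) and all 21 at P10 (2.03 to 4.54 and 2.29 to 3.68). Against Syn1CreNeg the Sp4 locus was kept for testing only because of its levels in the SP1 animals. Over single genes, 948 of 1036 values kept direction and call, 28 lost the call, 17 gained it and 43 reversed. For the changes below, the cause was not tested.

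At P28 the number of member loci called, 5, became 3 when animals were thinned to the shallowest and 3 without flanks. The 1 member promoter called at P28 was that of Sp4, not counted as a result above. That number became 3 by total scaling, 3 with no filter, 0 thinned and 4 in 2 kb windows. It was 2 with Syn1Cre animals 1 to 3 only, and 1 to 2 leaving out 1 animal. The 3 at P10 included the Sp1 and Sp4 windows. Their number became 1 by distinct positions, 0 thinned, 1 in 500-base windows, 0 against Syn1CreNeg, and 1 to 3 leaving out 1 animal. Between ages, the 2 member loci called ranged from 0 to 4 leaving out 1 animal, and the 0 promoters became 2 in 2 kb windows.

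The log2 values that changed sign for loci at P28 were Sp3 by total scaling 0.37 and leaving out 1 animal -0.37 to 0.11, Sp2 by distinct positions -0.12, Klf13 with Syn1Cre 1 to 3 -0.01. For loci at P10 they were Klf9 by DESeq2 -0.03, no filter -0.09, 2 or more reads -0.31, no flanks -0.48, Syn1Cre 4 to 6 -0.17, Syn1CreNeg -0.77, and leaving out 1 animal -0.10 to 0.15, and Klf13 with no filter -0.06, Syn1Cre 1 to 3 -0.14, and leaving out 1 animal -0.02 to 0.12. For promoters at P28 they were Klf7 by total scaling 1.63, no filter 0.07, and Klf9 by total scaling 1.62, 500 bases 0.57. For promoters at P10 they were Klf7 by total scaling 2.27, DESeq2 0.02, no filter 0.09, and leaving out 1 animal -0.30 to 0.28, and Klf9 by total scaling 1.09. Outside promoters at P28 they were Sp3 by total scaling 0.02, leaving out 1 animal -0.34 to 0.31, and Klf7 thinned 0.13. Outside promoters at P10 they were Sp2 with no filter -0.14, leaving out 1 animal -0.12 to 0.28, and Klf9 with 2 or more reads -0.08, leaving out 1 animal -0.06 to 0.40. Between Syn1Cre and GFAPCre they were Sp3 with 2 or more reads 0.12, and Sp4 thinned 0.01, Syn1Cre 4 to 6 0.07, leaving out 1 animal -0.20 to 0.01.

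Counts over all features moved more than 1.5 times. Loci called were 1627 (P28) and 1824 (P10) thinned and 2838 and 2280 without flanks. Promoters called were 2961 and 2301 with no filter, 208 and 289 by distinct positions, 65 and 106 thinned, and 844 and 812 in 500-base windows. With the replicate number as a block, which pairs no animals here, 5 (P28) and 4 (P10) member loci were called, and 799 promoters at P10. Sp3 outside promoters reversed to 0.03 and Klf13 at P10 to -0.14 with the block; the same animals without the block gave -0.14 for Klf13, and 4 member loci between ages. The depth of SP1 P10, at most 95331 insertions, limits the rarer windows.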
